A study of Zea mays with 12 samples.

Results

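The dehydrin and ASR genes of maize, a pair of small families known to be induced by abscisic acid, were followed in stem libraries of undisturbed, infested and wounded plants. Of 29723 features of the deposited table that carry a maize gene identifier, 7 were taken as members, 5 by identifier and 4 by the word dehydrin in their description, with 2 genes chosen both ways. Relatives under other descriptions are not among the 7, such as GRMZM2G002786, which RefSeq also calls dehydrin7 and which stands below with the other LEA genes. For 4 of the 5, the choice by identifier rested on measured values of these same libraries. GRMZM2G079440 and GRMZM2G373522 came from the genes that the study listed as different between regurgitate and wounding, and GRMZM2G014797 and GRMZM2G057841 from those it listed as different between larva and control. GRMZM2G136910, the fifth, was in neither list, and its values are given as a description throughout. GRMZM2G169372 and GRMZM2G448511 were selected on their description alone. In the comparison that placed a gene on a list, its values describe the choice and no test is given.

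Dehydrins are hydrophilic proteins of the late embryogenesis abundant (LEA) kind, which accumulate in ripening seeds and in vegetative tissue that loses water, where they are thought to shield membranes and proteins. ASR proteins take their name from abscisic acid, stress and ripening. They are small hydrophilic proteins that bind metal ions, and act both as protectants and on the transcription of sugar-related genes. Abscisic acid, the hormone of water deficit, is a known inducer of both families, and the maize DHN1 gene is also called rab17 because it responds to that hormone.

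The plants were of the inbred line PB130, a maize line described as resistant, and the tissue was an undamaged section of the stalk internode beneath the ear, freed of its leaf sheath, at day 15. Control plants were left untreated. Larva plants carried second-instar larvae of the Mediterranean corn borer *Sesamia nonagrioides*, set between the leaf sheath and the stem. Wounding plants were scratched with a scalpel on the leaf sheaths and given phosphate buffer, and regurgitate plants received the same wounds with caterpillar regurgitate in the buffer. In both wounded groups the wounds were covered with parafilm and renewed every other day. Each of the 4 groups had 3 libraries. The study's methods place treatment at silking with 1 plant per library, whereas the labels give the VT stage and more plants per genotype. The wounds were on the sheath and the sample was the stem, so every value below was taken away from the injury.

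In massive analysis of cDNA ends (MACE) a transcript gives a single fragment next to its poly-A tail. Counts therefore do not depend on transcript length, and levels of different genes can be set beside each other. Values are normalized counts (CPM), scaled to a common total of reads on maize genes by the TMM method. Libraries held 5651382 to 10056972 counts, of which 44.2% to 93.1% lay on maize genes and 1.03% to 48.0% on contigs assembled from unaligned reads. Larva replicates 2 and 3 differed little beyond sampling noise (chi-square per degree of freedom 1.55, against 16.6 to 67.8 in the other pairs of 1 group), although the sources give them as separate plants. Regurgitate replicate 3 stood apart with 1.03% of its counts on contigs, where the other 5 libraries of wounded plants held 17.4% to 48.0%. Genes of the stem wall (24 genes) summed to 824 to 1567 CPM in control, 779 to 883 in larva, 260 to 291 in wounding and 263 to 573 in regurgitate libraries. Leaf genes (24 genes) summed to 4152 to 9014 CPM over all libraries. Genes with words such as pollen, profilin or exopolygalacturonase in their description (31 genes) summed to 1293 to 1910 CPM. That list was matched by words alone, and its sum is not read as pollen in the stem.

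In the wounding libraries the leading dehydrin was another one than in the undisturbed stem. GRMZM2G079440 encodes the dehydrin DHN1. It held 19.2, 4.72 and 6.34 CPM in the control libraries and 4.78, 4.86 and 4.92 CPM in the larva libraries. In the wounding libraries it held 615, 1547 and 2975 CPM, and in the regurgitate libraries 64.2, 43.7 and 117 CPM. Wounding lay above regurgitate and regurgitate above control without overlap, and all larva libraries lay within the control range.

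The reads behind these levels were 30 to 156 counts per control library, 27 to 44 per larva library, 3256 to 13302 per wounding library and 117 to 795 per regurgitate library. Ranked by CPM among maize genes, DHN1 stood between place 9201 and place 15663 in control libraries, and at places 175, 67 and 33 in the wounding libraries. In regurgitate libraries it stood between place 1406 and place 4985. The wounding libraries themselves spread over a range from 615 to 2975 CPM, wider than that of any other group for this gene in absolute terms.

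DHN1 was chosen because of its difference between regurgitate and wounding, which here was a log2 fold change of -4.51 (standard error, SE, 0.74), 22.7-fold lower in regurgitate. Without regurgitate replicate 3 it was -4.96. Against control, DHN1 was at a log2 fold change of 7.38 (SE 0.90) in wounding, 166-fold higher, and of 2.87 (SE 0.63) in regurgitate, 7.32-fold higher. Each of these comparisons shares a group with the one that put the gene on the list, and both are given as descriptions. The independent comparison is that of larva with control. There DHN1 was at a log2 fold change of -1.08 (SE 0.52), which did not pass edgeR's quasi-likelihood test (FDR 0.567) or DESeq2 (adjusted p 0.571). That difference rested on control replicate 1, and without it was -0.21.

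**Figure D1:**
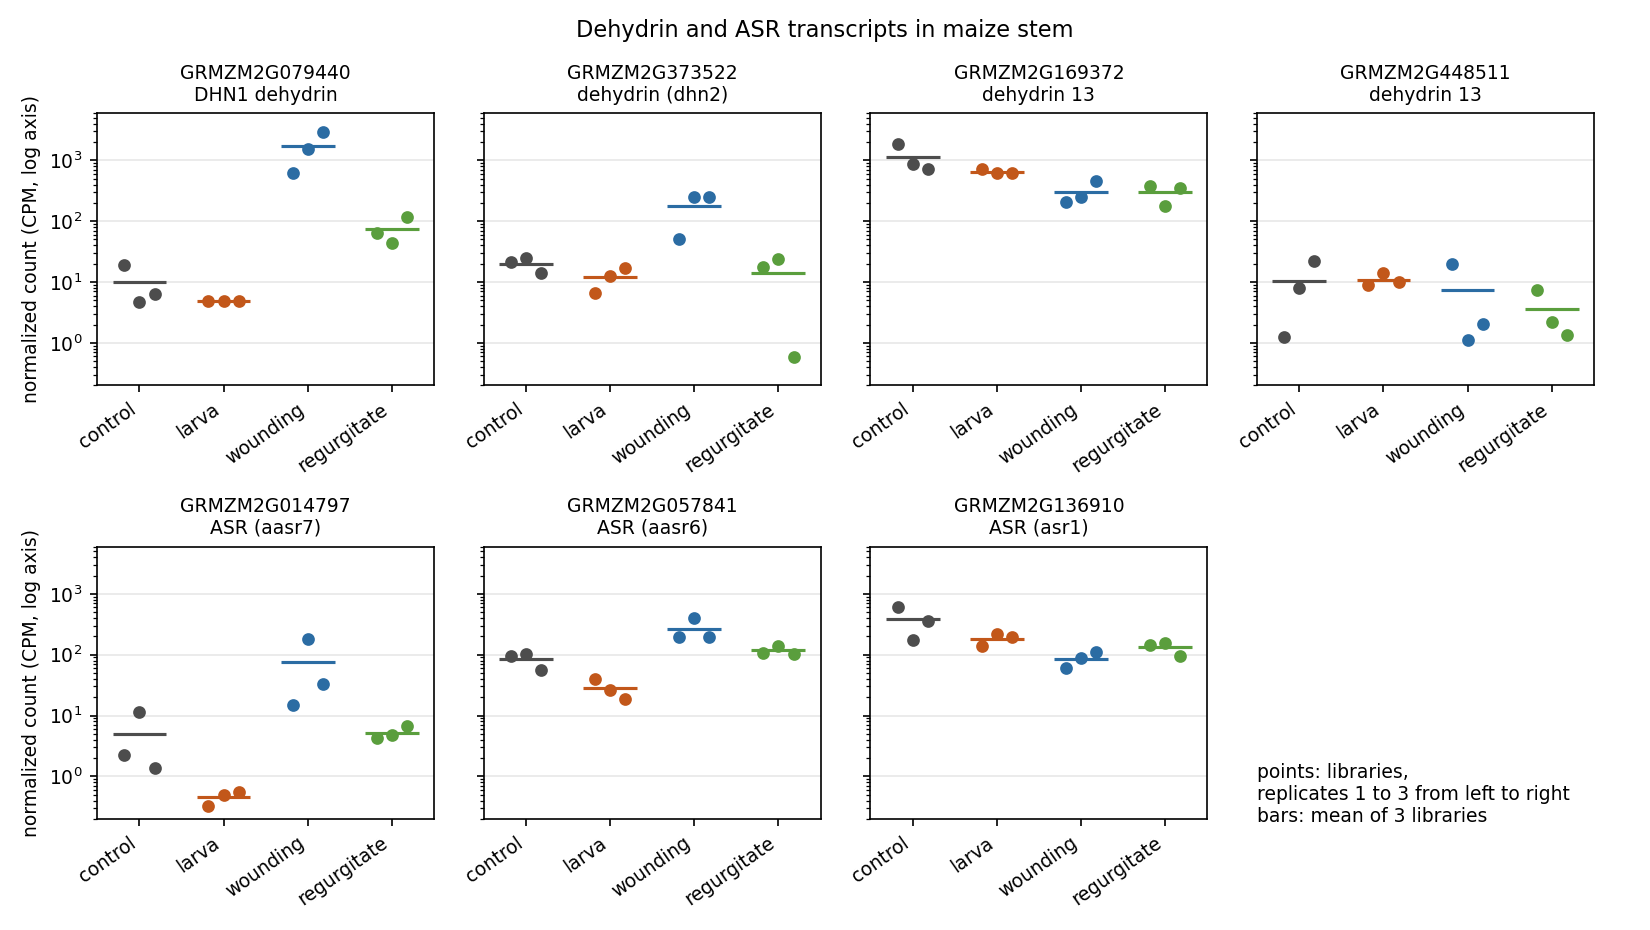
Normalized counts (CPM, log axis) of the 7 dehydrin and ASR genes in each library, with replicates 1 to 3 of control, larva, wounding and regurgitate from left to right and a bar at the mean of the 3 libraries. DHN1 runs from 4.72 to 19.2 CPM in control libraries and from 615 to 2975 CPM in wounding libraries, while the dehydrin 13 gene GRMZM2G169372 runs the other way, from 726 to 1851 CPM in control libraries and from 205 to 462 CPM in wounding libraries.

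GRMZM2G373522, a dehydrin known as dhn2 or dehydrin3, was much lower than DHN1 in the wounding libraries. It held 21.5, 24.7 and 14.2 CPM in control and 6.52, 12.8 and 17.1 CPM in larva libraries. Wounding libraries held 51.6, 245 and 245 CPM, and regurgitate libraries 17.8, 24.3 and 0.591 CPM. All 3 wounding libraries were above all control and regurgitate libraries, and larva overlapped with control.

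The last of the regurgitate values was 4 counts in regurgitate replicate 3, the library with few contig reads, where the other regurgitate libraries had 80 and 65 counts. The difference between regurgitate and wounding, on which this gene was chosen, was a log2 fold change of -3.74 (SE 1.16), and -3.09 without that library. Against control, dhn2 was at a log2 fold change of 3.15 (SE 0.60) in wounding, 8.89-fold higher, given as a description. In regurgitate against control the value was -0.56 (SE 0.94), and it became 0.06 without regurgitate replicate 3. In larva against control, the comparison that did not choose it, dhn2 was at a log2 fold change of -0.75 (SE 0.37) and did not pass (edgeR FDR 0.577, DESeq2 adjusted p 0.652). No gene passed edgeR's test in that comparison, 0 of 19612 or 0.00% (1918 had an unadjusted p under 0.05), and DESeq2 called 1.39%.

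GRMZM2G169372, described as dehydrin 13, was the most abundant of the 4 dehydrins among the members in the undisturbed stem. It held 1851, 857 and 726 CPM in control libraries and 720, 625 and 618 CPM in larva libraries. Wounding libraries held 205, 250 and 462 CPM, and regurgitate libraries 385, 181 and 351 CPM. It stood between place 23 and place 86 among maize genes in control libraries, places that DHN1 reached only in wounding replicates 2 and 3.

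Since this gene was selected on its description, its differences were tested in every comparison. After wounding it fell by 1.92 on the log2 scale (SE 0.48, 3.79-fold lower, edgeR FDR 0.0187, DESeq2 adjusted p 0.000337), with all wounding libraries below all control libraries. Calls were common in that comparison, 38.8% of 19166 genes by edgeR and 41.9% by DESeq2. The call was lost without wounding replicate 1 (FDR 0.0550) or wounding replicate 2 (FDR 0.0592), and when the replicate number was a block (FDR 0.0554). In regurgitate against control the log2 fold change was also -1.92 (SE 0.49), and edgeR's test did not call it (FDR 0.122) where DESeq2 did (adjusted p 0.00208), against backgrounds of 1.28% and 8.92% of genes called. Regurgitate and wounding libraries had means of 306 ± 110 and 305 ± 137 CPM (SD, n = 3 each), and the log2 difference of less than 0.01 had a standard error of 0.43 (edgeR FDR 0.999). The larva libraries were all below the control libraries, by a narrow gap between 720 and 726 CPM, and the log2 fold change of -0.82 (SE 0.37) did not pass (edgeR FDR 0.532).

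GRMZM2G448511, the other gene described as dehydrin 13, was low in all groups and spread widely within control and wounding. It held 1.23, 7.86 and 22.3 CPM in control, 8.81, 14.0 and 10.02 CPM in larva, 19.5, 1.09 and 2.01 CPM in wounding and 7.34, 2.24 and 1.33 CPM in regurgitate libraries. The groups overlapped in every comparison and its largest fitted difference, -1.54 (SE 1.05) in regurgitate against control, did not pass (edgeR FDR 0.452). Its counts were 5 to 165 per library. Thus, of the 2 dehydrins selected by description, edgeR called 1 in wounding against control and 0 in the other 3 comparisons by the FDR. At an unadjusted p under 0.05, and by DESeq2, GRMZM2G169372 also passed in regurgitate against control, and neither gene passed in the other 2.

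The makeup of the dehydrin reads differed between control and wounding libraries without overlap, whereas their sum overlapped. DHN1 and dhn2 were chosen on their difference between regurgitate and wounding. The shares below follow in part from that choice and are given as a description. The 4 dehydrins among the members together summed to 768 to 1893 CPM in control, 650 to 740 in larva, 890 to 3685 in wounding and 251 to 475 in regurgitate libraries. DHN1 made up 0.528% to 1.02% of the dehydrin counts in control and 0.647% to 0.757% in larva libraries. It made up 69.1%, 75.7% and 80.8% in wounding libraries and 13.5%, 17.4% and 25.0% in regurgitate libraries. GRMZM2G169372 made up 94.4% to 97.8% of the dehydrin counts in control libraries, 12.2% to 22.97% in wounding libraries and 72.0% to 81.2% in regurgitate libraries. In the regurgitate libraries GRMZM2G169372 was again the leading one of the 4, at a lower level than in control libraries. These shares leave out GRMZM2G002786, which held 113 to 120.5 CPM in control, 56.4 to 78.6 CPM in wounding and 69.5 to 103 CPM in regurgitate libraries. With it added, a choice made after seeing the data, GRMZM2G169372 made up 82.3% to 92.0% in control and 56.4% to 67.8% in regurgitate libraries, and DHN1 63.5% to 79.5% in wounding libraries. In a bulk sample, fewer cells of a type and less RNA per cell cannot be told apart. The stem wall genes were also lower in wounded plants (260 to 291 CPM in wounding against 824 to 1567 in control), and their part in the level of GRMZM2G169372 was not tested. Genes of seed storage and oil bodies, which seeds express beside dehydrins, summed to 13.2 to 49.7 CPM over 10 genes in wounding and 5.06 to 17.6 CPM in control libraries, with 3 of the 10 at 0 in every wounding library and 5 in every control library.

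Of the ASR genes, GRMZM2G014797, named aasr7 in the study, was the least abundant in every library except wounding replicate 2. It held 2.22, 11.5 and 1.35 CPM in control libraries, and 0.326, 0.486 and 0.547 CPM in larva libraries, which was 3, 4 and 3 counts. Wounding libraries held 14.7, 183 and 33.1 CPM and regurgitate libraries 4.22, 4.86 and 6.65 CPM. Larva lay below control, wounding above all other groups, and regurgitate within the control range.

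This gene was chosen by its difference between larva and control, here a log2 fold change of -3.45 (SE 0.95), with 3 to 4 counts per larva library. It was -2.00 without control replicate 2, which held 73 counts against 18 and 10 in the other control libraries. In regurgitate against wounding, a comparison that did not choose it, the log2 fold change was -3.87 (SE 0.98), 14.6-fold lower in regurgitate. EdgeR's test did not call it (FDR 0.111) and DESeq2 did (adjusted p 0.000489). In that comparison edgeR called 0.0602% of 18285 genes and DESeq2 8.94%. Wounding replicate 2, with 838 counts, carried a large share of the difference. Without it the value was -2.16 (edgeR FDR 0.227), while over all 12 libraries in 1 fit it was -3.85 (FDR 0.0346). Against control the gene was at a log2 fold change of 3.95 (SE 1.17) in wounding, 2.27 without wounding replicate 2, and 0.08 (SE 0.78) in regurgitate, both given as descriptions because the control libraries took part in its choice.

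GRMZM2G057841, named aasr6, was more abundant than aasr7 in every library. It held 93.5, 103 and 56.0 CPM in control, 39.1, 26.1 and 18.8 CPM in larva, 196, 394 and 193 CPM in wounding and 108, 141 and 104 CPM in regurgitate libraries. The 4 groups were ordered from larva through control and regurgitate to wounding without overlap, although control and regurgitate were separated only by the gap between 103 and 104 CPM. The difference that chose it, larva against control, was a log2 fold change of -1.60 (SE 0.33), 3.03-fold lower. In regurgitate against wounding it was at a log2 fold change of -1.17 (SE 0.35), 2.24-fold lower, which edgeR did not call (FDR 0.149) and DESeq2 did (adjusted p 0.0381). Against control the value was 1.62 (SE 0.37) in wounding and 0.46 (SE 0.28) in regurgitate, as descriptions.

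GRMZM2G136910, the ASR gene also known as asr1, was lower in wounding than in control libraries, where the other ASR genes were higher. It held 606, 176 and 359 CPM in control, 140, 217 and 192 CPM in larva, 60.8, 86.6 and 111 CPM in wounding and 144, 158 and 93.5 CPM in regurgitate libraries. It was the most abundant ASR gene in control and larva libraries, whereas GRMZM2G057841 was the most abundant in the wounding libraries. Its log2 fold changes were -2.16 (SE 0.47) in wounding against control, -1.55 (SE 0.47) in regurgitate against control, -1.07 (SE 0.43) in larva against control and 0.60 (SE 0.31) in regurgitate against wounding. The wounding libraries were all below the control libraries, as were the regurgitate libraries, by the gap between 158 and 176 CPM, and in the other comparisons the groups overlapped.

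**Figure D2:**
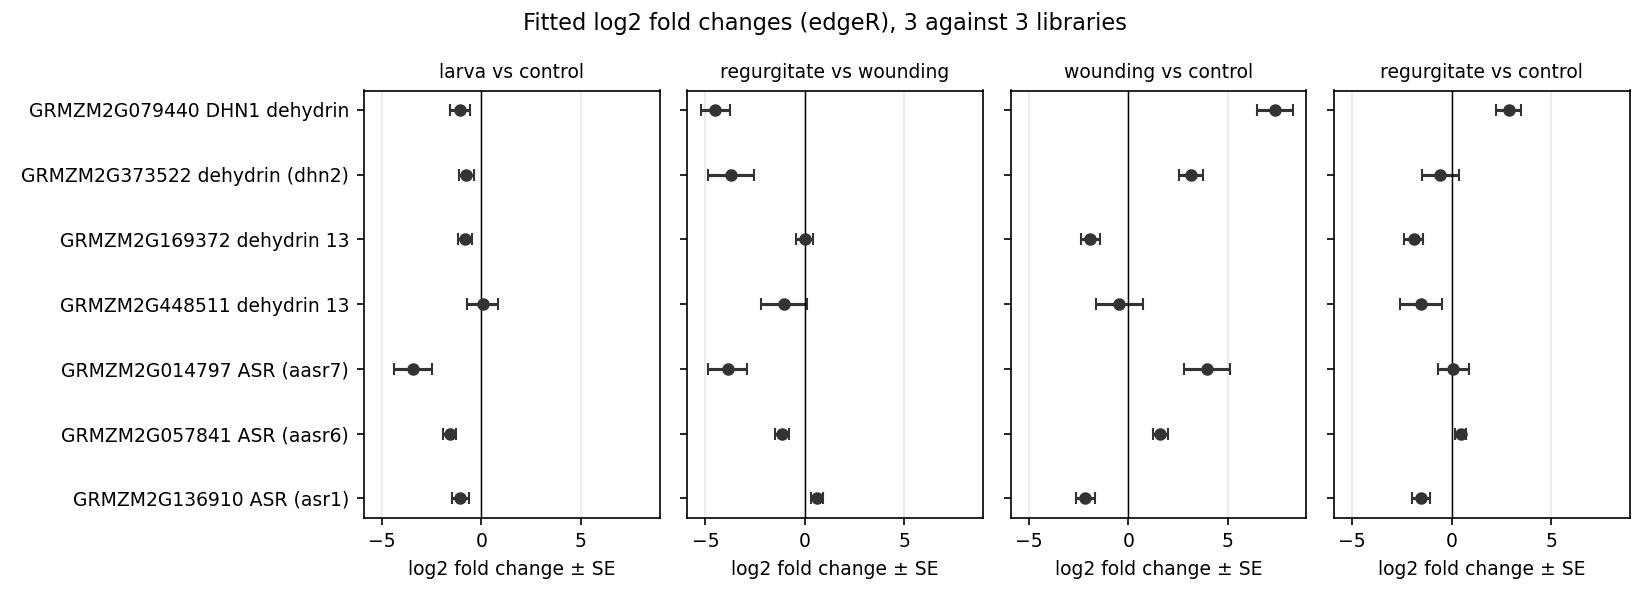
Fitted log2 fold changes of the 7 genes in the 4 comparisons (edgeR, points) with their standard errors (bars), each from 3 against 3 libraries. DHN1, dhn2, aasr7 and aasr6 lie at 7.38, 3.15, 3.95 and 1.62 in wounding against control, and GRMZM2G169372 and asr1 at -1.92 and -2.16.

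The 7 genes thus fell into a set with wounding as its highest group (DHN1, dhn2, aasr7 and aasr6), a set with control as its highest (GRMZM2G169372 and asr1), and GRMZM2G448511 with no order beyond its spread. In wounding against control, 4 of the 7 were higher without overlap between the groups and 2 were lower, where 27.5% and 27.6% of all genes tested were. In regurgitate against wounding 4 of the 7 were lower without overlap (14.0% of all genes), in larva against control 3 of the 7 (7.07%), and in regurgitate against control 2 of the 7 were higher without overlap (15.8%) and 2 were lower (13.6%). Since 4 of the genes had been chosen from these comparisons, and the comparisons share libraries, nothing is read from these counts. Over the 12 libraries, the log2 CPM of aasr7 and aasr6 had a Pearson correlation of 0.923, DHN1 of 0.847 with aasr7 and 0.835 with aasr6, and GRMZM2G169372 of 0.806 with asr1. DHN1 and dhn2 had 0.581. These coefficients describe 12 libraries that share their treatments and scaling.

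The reads on fungal sequences moved with the wounded groups. Features whose description names Fusarium or Gibberella, names of the same genus of maize stalk rot fungi, took 0.148% to 0.269% of all counts in control libraries, 5.62% to 19.4% in wounding libraries, 2.93%, 0.122% and 0.132% in larva libraries, and 2.81%, 11.2% and 0.0183% in regurgitate libraries. In both wounded groups the order of the libraries by DHN1 was not that by fungal share, whereas in control libraries, at 0.148% to 0.269%, it was. Regurgitate replicate 3, with 0.0183%, had the highest DHN1 level of its group (117 CPM), regurgitate replicate 2, with 11.2%, the lowest (43.7 CPM), and wounding replicate 3, with the smallest fungal share of its group, the highest (2975 CPM). Larva replicate 1, with 2.93%, held 4.78 CPM of DHN1, as the other larva libraries did. For aasr7, wounding replicate 2 had both the highest fungal share (19.4%) and the highest level (183 CPM). In the other groups this was not so. Control replicate 2, with the smallest share of its group (0.148%), had the highest aasr7 level there (11.5 CPM). Regurgitate replicate 3 (0.0183%) also had the highest of its group (6.65 CPM), and larva replicate 1 (2.93%) had the lowest (0.326 CPM). Between the groups, wounding and fungal reads cannot be told apart, since all wounding libraries held both.

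**Figure D3:**
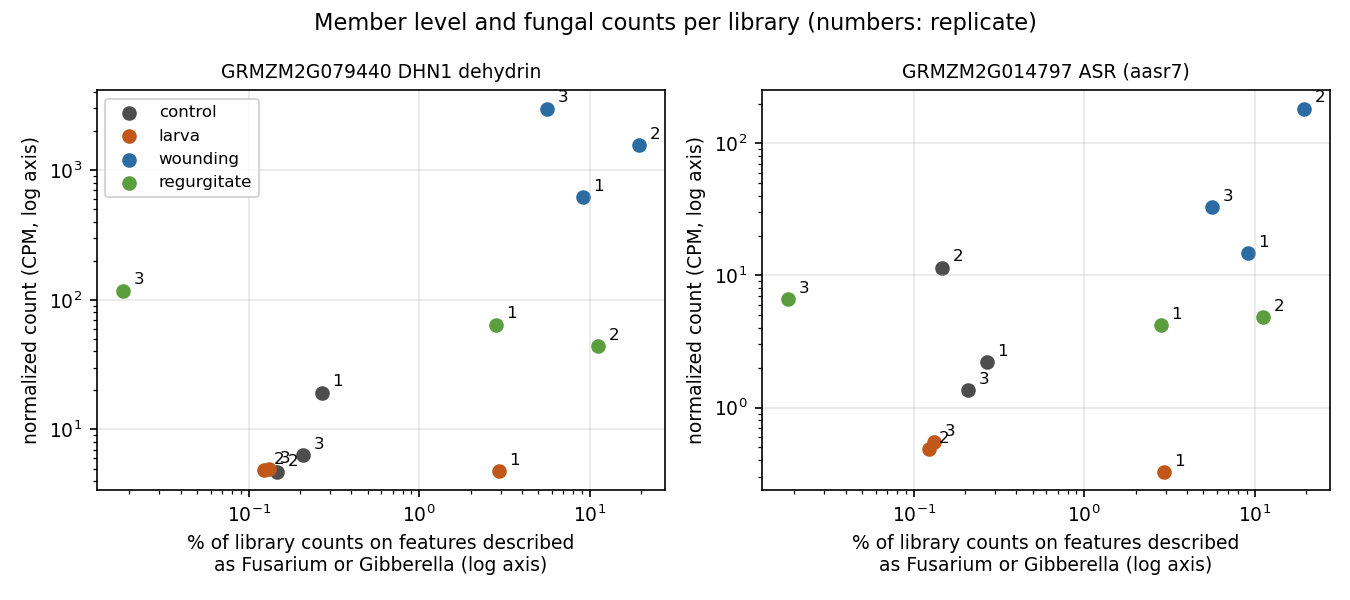
Normalized counts (CPM, log axis) of DHN1 and of aasr7 against the percent of the counts of each library on features described as Fusarium or Gibberella (log axis), coloured by group and numbered by replicate. Regurgitate replicate 3 lies at 0.0183% with 117 CPM of DHN1, above regurgitate replicate 2 at 11.2% with 43.7 CPM.

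Beyond the dehydrins and ASR genes, 63 features had descriptions naming other LEA proteins (17), abscisic acid (11), water, cold or salt stress (25) or the synthesis of compatible solutes (10), which are sugars, polyols and amino acids that cells build up as water is lost. The solute list includes GRMZM2G049538, a maize feature joined to a Gibberella contig, which did not pass the filter on low counts. In wounding against control, 41 of the 63 passed the filter on low counts. EdgeR called 23 of them higher and 4 lower, with a median log2 fold change of 1.17. Some of the 23 needed the wounding libraries to pass the filter, so that the count is fixed in part by the filter. They were the LEA genes GRMZM2G448627, GRMZM2G096475 and GRMZM2G072890 (8, 42 and 70 counts in control libraries). The others were the abscisic acid gene GRMZM2G417954 and the solute gene GRMZM2G165919 (8, 30 and 44 counts). Over all 19166 genes tested, 38.8% were called, 3747 higher and 3691 lower, with a median of -0.01. The count of 27 called genes was 20 to 33 under the alternatives, where calls over all genes ran from 5112 of 19166 to 16657 of 33262.

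Of the 17 other LEA genes, 12 passed the filter, and 7 of these were called higher and 1 lower (38.8% of all genes in either direction). GRMZM2G148904, an embryonic abundant-like protein, held 28.1, 27.7 and 32.1 CPM in control libraries and 149.6, 237 and 271 CPM in wounding libraries. It rose by a log2 fold change of 2.89 (SE 0.26, edgeR FDR 0.000774). It also had 132 CPM in larva replicate 1, against 26.4 and 27.7 CPM in the other larva libraries, and larva replicate 1 was the larva library with 2.93% fungal reads. The seed maturation protein GRMZM2G023992 rose by 1.26 (edgeR FDR 0.00335). GRMZM2G002786, described as a seed maturation protein but with the RefSeq synonym dehydrin7, fell by 0.79 (edgeR FDR 0.0147). A pair of further LEA genes were named after their values were seen. The seed maturation protein GRMZM2G448627 held 0.123, 0 and 0 CPM in control (1, 0 and 0 counts) and 3.40, 45.7 and 6.93 CPM in wounding libraries. It passed the filter on low counts only through the wounding libraries, so that its place in the count is fixed in part by the filter. The LEA group 3 gene GRMZM2G096475 held 7.65, 0.786 and 1.75 CPM in control and 81.2, 161 and 266 CPM in wounding libraries. With 62, 5 and 13 counts in control libraries, it too needed the wounding libraries to pass the filter.

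Among the abscisic acid genes, 5 were called higher and 2 lower of 8 tested (38.8% of all genes in either direction). Both listed genes for the enzyme that cleaves carotenoids, the committed step in the synthesis of the hormone, were among the higher ones. GRMZM2G417954, described as Viviparous-14, held 2.71, 3.30 and 0.944 CPM in control and 34.2, 68.6 and 34.0 CPM in wounding libraries. That was a rise of 4.28 on the log2 scale (SE 0.50, edgeR FDR 0.00142). Its control counts were 22, 21 and 7, and it needed the wounding libraries to pass the filter on low counts. The RefSeq synonym vp14 belongs to the other gene, GRMZM2G014392, 9-cis-epoxycarotenoid dioxygenase 1. That feature joins the gene with assembled contigs, and it rose by 2.13 (edgeR FDR 0.0109). The 2 lower genes encode SnRK2 kinases, the family that relays the hormone's signal. GRMZM2G138861, with the RefSeq synonym SnRK2.8, stood in the stress list by its description and was not called (0.19, edgeR FDR 0.397). GRMZM2G180916 (SnRK2.3) fell by 1.15 (edgeR FDR 0.00436) and GRMZM2G066867 (SnRK2.10) fell by 1.07 (edgeR FDR 0.0185, lost without control replicate 2, FDR 0.0584, or control replicate 3, FDR 0.0504).

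Of the stress genes, 6 were called higher and 1 lower of 14 tested, beside 38.8% of all genes called in either direction. The factor gene GRMZM2G174917, of the kind that binds dehydration-responsive elements, rose by 1.24 (edgeR FDR 0.00170), and the cold acclimation membrane protein GRMZM2G040030 (COR413-PM1) rose by 2.15 (edgeR FDR 0.00186). GRMZM2G325513, the factor 1B of the former kind, fell by 3.73 (SE 0.75, edgeR FDR 0.00895), from 2.99 to 12.2 CPM in control to 0.224 to 0.875 CPM in wounding libraries. Its counts were 99, 19 and 35 in control and 2, 4 and 1 in wounding libraries. It passed the filter on low counts only through the control libraries, so that its place in the count is fixed in part by the filter. Of the solute genes, 5 were called higher and 0 lower of 7 tested (1 was lower by DESeq2 and at an unadjusted p under 0.05). The trehalose-6-phosphate synthase GRMZM2G122231 rose by 5.55 (SE 0.50, edgeR FDR 0.000767), from 8.63 to 16.0 CPM to 315 to 887 CPM. The galactinol synthase GRMZM5G872256, which makes the sugar donor for raffinose, rose by 4.77 (SE 1.01, edgeR FDR 0.0108), from 2.10 to 9.04 CPM to 22.7 to 323 CPM.

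In regurgitate against wounding, 33 of 39 tested genes of these lists had a lower value in regurgitate, with a median log2 fold change of -0.54 (-0.02 over all genes, of which 9428 of 18285 were lower). EdgeR called 0 of them, where 15 were lower and 1 higher at an unadjusted p under 0.05 (1907 and 1709 over all genes) and DESeq2 called 8 lower and 1 higher (8.94% of all genes in either direction). Both lower counts include GRMZM2G448627 (1, 1 and 0 counts in regurgitate libraries) and GRMZM2G165919 (21, 3 and 13 counts). These genes needed the wounding libraries to pass the filter, so that their place in the counts is fixed in part by the filter. Without regurgitate replicate 2, the library with 48.0% of its counts on contigs, edgeR called 5, and its calls over all genes went from 11 to 521 of 18285. The genes with the smallest p of each list were not called by edgeR. They were the seed maturation protein GRMZM2G457346 (log2 fold change -1.92, edgeR FDR 0.0783) and GRMZM2G417954, described as Viviparous-14 (-2.95, FDR 0.0820). For the stress and solute lists they were the drought-induced protein GRMZM2G307368 (-0.82, FDR 0.158) and GRMZM2G340656 (-2.54, FDR 0.0783). GRMZM2G340656 is described as a stachyose synthase but has the RefSeq synonym AGA1, so its place in the solute list rests on the description. GRMZM2G014392, which has the synonym vp14, was at -0.91 (FDR 0.599). Without regurgitate replicate 2, GRMZM2G457346 (-2.25, FDR 0.0249), GRMZM2G417954 (-3.59, FDR 0.0426) and GRMZM2G340656 (-2.66, FDR 0.0484) were among the called genes. GRMZM2G340656 held 989, 462 and 941 CPM in wounding libraries, 138, 170 and 106 CPM in regurgitate libraries and 31.2, 116 and 170 CPM in control libraries, so that regurgitate overlapped with control as it did for aasr7.

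Larva against control gave 0 called genes among 43 tested by edgeR, with 29 of the 43 lower and a median of -0.20. At an unadjusted p under 0.05, 8 were lower and 1 higher, and DESeq2 called 1 lower (1.39% of all genes in either direction). Over all 19612 genes 10148 were lower, 1002 were lower and 916 higher at an unadjusted p under 0.05, and the median was -0.01. The gene called by DESeq2 was GRMZM2G325513 (log2 fold change -2.81, edgeR FDR 0.310). It held 99, 19 and 35 counts in control and 5, 14 and 3 in larva libraries, and needed the control libraries to pass the filter. The other genes with the smallest p of their list were GRMZM2G457346 (-1.18, edgeR FDR 0.334), the abscisic acid-responsive GRMZM2G106622 (-0.99, FDR 0.353) and GRMZM2G028535 (-0.42, FDR 0.728), a synthetase of the proline pathway. In regurgitate against control DESeq2 called 3 higher and 2 lower (8.92% of all genes in either direction). EdgeR called 1 of 41 there, with a median of 0.14 (-0.04 over all 19171 genes, of which edgeR called 208 higher and 37 lower). It was the LEA gene GRMZM2G148904, with 87.8, 99.7 and 65.3 CPM in regurgitate libraries, which rose by 1.501 (SE 0.21, edgeR FDR 0.0350), a call lost under 8 of 15 alternatives, among them the fits without any 1 of the control libraries, without regurgitate replicate 1 or without regurgitate replicate 2 (FDR 0.0509 to 0.146). The abscisic acid-inducible RNA-binding protein GRMZM2G165901 (1.14, edgeR FDR 0.215), the drought-induced protein GRMZM2G098460 (1.23, FDR 0.0824) and the trehalose-6-phosphate synthase GRMZM2G122231 (4.37, FDR 0.104) were not called by edgeR. GRMZM2G122231 held 70.7, 632 and 56.3 CPM in regurgitate libraries, and was called without regurgitate replicate 2 (2.40, FDR 0.0377) or without regurgitate replicate 3 (4.89, FDR 0.0488).

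**Figure D4:**
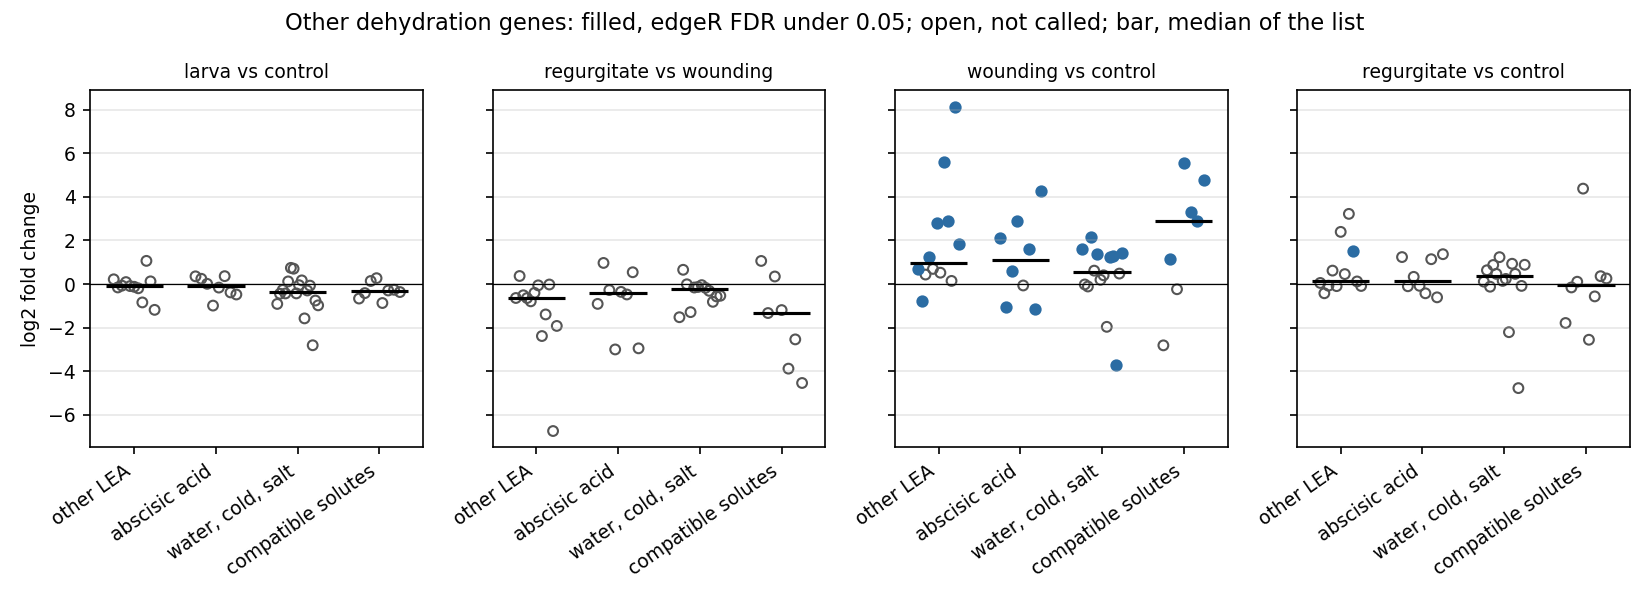
Log2 fold changes of the tested genes of the 4 dehydration lists in each comparison, with filled points for genes under an edgeR FDR of 0.05, open points for the others and a bar at the median of the list. Filled points are 27 in wounding against control, 1 in regurgitate against control and 0 in both other comparisons.

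Of 20217 other genes, the one whose log2 CPM followed DHN1 most closely over the 12 libraries was GRMZM2G033515, an isocitrate dehydrogenase (Pearson r 0.989), which held 4.25 to 17.0 CPM in control, 6.09 to 6.93 in larva, 150.1 to 301 in wounding and 19.4 to 36.9 in regurgitate libraries. GRMZM2G090736 (0.974) and GRMZM2G073567 (0.972), both without a described function, came next. For aasr7 the closest were the glycosyl hydrolase GRMZM2G061403 (0.983), with 1076 CPM in wounding replicate 2 against 137 and 371 CPM in the other wounding libraries, GRMZM2G014854 (0.974), described as induced by the bacterium Erwinia, and GRMZM2G167049 (0.969), without a described function. These coefficients describe the same 12 libraries in 4 groups and were not tested.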

How the data were processed

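Counts of 12 MACE libraries of maize stem were analysed, 3 in each of 4 groups. As the study describes it, copies of the same molecule were removed, reads were trimmed with Cutadapt and aligned with NovoAlign 3.00.05 to the maize genome and transcriptome of Ensembl release 23 (at most 10 locations per read), and unaligned reads were joined into contigs. The authors deposited counts per feature without normalization. How reads shared by similar genes were placed is not given in the sources used here. The deposited group means, p-values, FDRs and fold changes of the authors' DESeq comparisons were not used. All value columns per sample could be mapped. Lines without a match held 0.106% to 0.289% of the counts and were left out.

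Features with a maize gene identifier were tested with edgeR 4.0.16 (limma 3.58.1, R 4.3.3): filterByExpr (minimum count 10, minimum total 15), TMM scaling, quasi-likelihood F test per pair of groups (6 libraries), Benjamini-Hochberg adjustment over all genes tested, threshold 0.05. DESeq2 1.42.0 was the alternative test. The others were RLE factors, total counts only, no filter, a mean count of 10, every feature, single identifiers, all 12 libraries in 1 fit, each library left out, larva replicates 2 and 3 summed, and the replicate number as a block. The steps were tested on simulated data. CPM used TMM factors over all 12 libraries, and log2 CPM a prior count of 2.

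The genes, lists and tests were chosen with earlier results of these data known, and the list of fungal names after seeing the data. Lists were words matched at word edges in the deposited descriptions. Named are all members, in each list and comparison up to 2 called genes per direction with the smallest p (or the 1 with the smallest p, where none was called), and the 3 genes most like DHN1 and aasr7. Genes named only because of the filter on low counts are outside this rule. Of the 7 members, 5 matched the RefSeq gene table (assembly Zm-B73-REFERENCE-NAM-5.0), which was used for names only. The names aasr6 and aasr7 are the study's.

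The labels number the replicates 1 to 3. The study's methods state no pairing of plants by these numbers. Deviations from the group means of regurgitate and wounding libraries with the same number had correlations of 0.168, 0.336 and 0.170, and all 3 were highest with their own number. In larva against control 1 was, and in wounding and in regurgitate against control 0 were. A pairing seen only in these data is not established, so the main fits left the libraries unpaired and the block was an alternative. With the block, edgeR called 0 genes in regurgitate against wounding (11 without it). By edgeR, aasr6, aasr7 and the dehydrins selected by description were called neither with nor without the block. DESeq2, without a block, called aasr6 (adjusted p 0.0381) and aasr7 (adjusted p 0.000489).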

Additional observations from a re-analysis of the deposited data

Results flagged for a closer look

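Reads on features described as Fusarium or Gibberella lay above the highest control library (0.269% of counts) in 6 libraries, in data that the comparisons of maize genes do not use. The share was 2.93% in larva replicate 1, 9.10% in wounding replicate 1, 19.4% in the second and 5.62% in the third wounding library. Regurgitate replicate 1 held 2.81% and regurgitate replicate 2 held 11.2%. In regurgitate replicate 3 it was 0.0183%, below every control library. The level of DHN1 in that library (117 CPM) was above those of regurgitate replicates 1 and 2 (64.2 and 43.7 CPM).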

How the results depend on the processing

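DHN1 and dhn2 in larva against control kept their direction and stayed uncalled in all 16 alternatives (log2 fold changes from -1.41 to -0.21 and from -1.08 to -0.44, both extremes from leaving out 1 library). In regurgitate against wounding, aasr6 was called only by DESeq2 (-1.13) and aasr7 by DESeq2 (-3.84) and in the fit of all 12 libraries (-3.85), and with the replicate block they were -1.09 and -3.05, uncalled. Leaving out each library gave -1.34 to -0.73 and -4.36 to -2.16. The count of called dehydrins selected by description in wounding against control was 0 with the replicate block and 0 to 1 with each library left out, and in regurgitate against control 1 by DESeq2 and 1 in the fit of all 12 libraries. Called genes of the 4 lists numbered 1 by DESeq2 in larva against control. In regurgitate against wounding they numbered 9 by DESeq2, 9 in the fit of all 12 libraries, 2 without a filter and 0 to 5 with each library left out, and in regurgitate against control 5, 4, 0 with every feature, 0 with the replicate block and 0 to 2. Calls over all genes also shifted. DESeq2 called 273 of 19593 in larva against control. In regurgitate against wounding the calls were 1633 of 18265 by DESeq2, 1788 of 20224 in the fit of all 12 libraries and 110 of 27947 without a filter. With each library left out they were 0 to 521 of 18285. In regurgitate against control they were 1707 of 19132, 1190 of 20224, 0 with every feature, 0 with the replicate block and 0 to 480 of 19171. The cause of these shifts was not tested. GRMZM2G169372 in regurgitate against wounding changed sign around 0, with 0.0349 under RLE factors, 0.0350 by DESeq2, 0.31 with total counts, 0.22 with every feature, 0.0425 with single identifiers, 0.00233 with the replicate block, 0.00199 in the fit of all 12 libraries, and -0.23 to 0.43 with each library left out. GRMZM2G448511 changed sign in some of the 6 fits with 1 library left out, 3 in larva against control (-0.48 to 1.30), 1 in regurgitate against wounding (-2.11 to 1.20) and 2 in wounding against control (-2.77 to 0.75). In regurgitate against control aasr7 did so in 3 (-0.36 to 1.55, and -0.0383 with total counts) and dhn2 in 1 (-1.18 to 0.0637). Scaling by total counts moved the median of all genes in wounding against control to -0.44, and calls to 2366 higher of 9107 in place of 3747 of 7438. DHN1 was then at 6.95. The replicate block lowered the calls of regurgitate against control from 245 to 0 and of wounding against control from 7438 to 5404, pairs whose numbers had correlations between -0.238 and -0.0108, and in larva against control (-0.214 to 0.221) it left 0. Depth limits the larva level of aasr7, at 3 to 4 counts per library.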
